A study of Mus musculus with 550 samples.

Results

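Myelin is the lipid-rich sheath that oligodendrocytes wrap around axons in the brain. Its messenger RNA was followed here through 9 genes: Mbp, Mobp, Cnp, Mal, Mog, Mag, Cldn11, Ugt8a and Olig2. A gene was taken from the deposited values by the probe sets annotated to it and to no other gene, and the probe set with the highest mean over the brain arrays stood for it. All 9 had such a probe set, so they are 9 of the 17097 genes tested in brain. No brain array was at the detection floor for any of them.

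The series gave C57BL/6 mice a single dose and profiled 7 organs on 550 Affymetrix arrays, of which 86 were brain. Brain was taken 6 h or 12 h after dosing. DMF, dimethyl fumarate, had a lower dose of 100 and a higher dose of 179.2 mg/kg. MEF, a mixture of calcium, magnesium and zinc salts of monoethyl fumarate, was given at 79.2 mg/kg, alone or with DMF at 100 mg/kg. For the combined groups the sample titles name both compounds, while another label field names DMF alone. Naive mice, which the labels name without a dose, were taken at 12 h only. Vehicle mice received hydroxypropyl methylcellulose. At 6 h each of the 5 groups held 8 arrays. At 12 h each of the 6 groups held 8 arrays, except that DMF 100 and DMF 100 plus MEF held 7 each. Each array is brain tissue of 1 mouse, and the labels give neither sex nor age nor how the brain was dissected. The groups compared share no animal.

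In the adult brain a sheath is kept up by mature oligodendrocytes, which hold large amounts of messenger RNA for a few structural proteins. The proteins differ in place, some compacting the membrane, some sitting at its outer face or next to the axon, and some forming the seals between its layers. Fumaric acid esters are used in the demyelinating disease multiple sclerosis, and DMF is known as an activator of the transcription factor NRF2. RNA from brain tissue cannot tell fewer oligodendrocytes from less RNA in each of them, nor either from a different share of brain regions in the sample.

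The 6 h and the 12 h arrays had different floors, 2.13 and 2.18 on the log2 scale, and were taken as normalized apart. Levels are therefore compared within a time only, and differences between the times are tested only through the difference from their own vehicle. Spread and correlation within groups are described for each time without a test. A gene is called changed when its Benjamini-Hochberg adjusted p over all 17097 genes, from a limma model of the 86 brain arrays, is below 0.05.

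Several vehicle brains at 12 h stood apart before any result on myelin. The hindbrain genes Hoxb3, Hoxb5 and Hoxc4 averaged 3.545, 3.547 and 4.03 on the log2 scale in 3 vehicle arrays, and between 2.27 and 2.81 in the other 5. In the 12 h DMF 179.2 arrays the same mean lay between 2.27 and 2.57. Of 9 measured brainstem markers, 4 were called lower in DMF 179.2 than in vehicle at 12 h (Hoxb3, Hoxb5, Hoxc4 and the glycine transporter Slc6a5). Of all genes, 1.31% were called in that comparison and 0.714% called lower. At 12 h Hoxb3 and Hoxc4 were also called lower than the same vehicle in DMF 100, MEF, DMF 100 plus MEF and naive. Hoxb5 was called lower in DMF 100 plus MEF and in naive as well. Of all genes, 0.0234% were called in DMF 100, 0.0877% in MEF, 1.45% in DMF 100 plus MEF and 2.56% in naive. The mean of the whole brainstem list ranged from 2.65 to 3.65 in those DMF 179.2 arrays and from 2.61 to 4.10 in vehicle. Gabra6, a receptor subunit of cerebellar granule cells, was above 4 in 8 brain arrays. At 6 h they were vehicle replicates 51 and 58 and DMF 179.2 replicate 72. At 12 h they were vehicle replicates 1 and 2, DMF 100 replicates 12 and 13, and naive replicate 41. Values without these arrays are given beside the calls of the 9 myelin genes they touch. For the called genes of other lists they are not given, and the part of the region markers in other results was not tested. The labels name no batch. Animal numbers were counted here in runs of 12, a length that no label gives, and what a place stands for was not tested. Within groups, place in the run had a slope at an adjusted p below 0.05 in limma for 23.2% of genes at 6 h. At 12 h it had one for 28.1% of genes. Of the 9 myelin genes, 0 had such a slope at 6 h and 4 at 12 h. At 12 h Olig2 was lower at later places, by -0.03 ± 0.01 per place (adjusted p = 0.0342), and so was Mobp (-0.04 ± 0.01, adjusted p = 0.0226). Mbp (0.02 ± 0.01, adjusted p = 0.0353) and Cldn11 (0.03 ± 0.01, adjusted p = 0.0133) were higher there. DMF 179.2 and naive animals held places 5 to 12 and vehicle animals places 1 to 8, so the slopes of Olig2 and Mobp run the same way as their changes against vehicle at 12 h.

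The labelled tissue showed its myelin. Mbp, which encodes the basic protein that holds the cytoplasmic faces of the sheath together, had a median of 12.29 at 6 h and stood above 98.4% of genes there. Over the other 6 organs, 256 of 464 arrays were at the floor for Mbp, and its highest organ median was 5.31, in whole blood at 12 h. Mobp, a second compacting protein of the cytoplasmic face, was at the floor in 460 of those 464 arrays. Mag, an adhesion protein of the membrane next to the axon, was at the floor in 457. Ugt8a, the enzyme that makes the myelin lipid galactosylceramide, was at the floor in 383 of 464 arrays but had a median of 7.60 in kidney at 6 h. Mal, a raft protein of myelin that also serves apical membrane traffic in epithelia, had a median of 12.00 in kidney at 6 h. Cnp, a phosphodiesterase of the non-compacted cytoplasm, was at the floor in no array of any organ, with a highest median outside brain of 10.70 in spleen at 6 h. Cldn11, the claudin of myelin's tight junctions, reached a median of 7.94 in mesenteric lymph node at 6 h. Mog, the glycoprotein of the outermost lamella, had no organ median above 3.71 outside brain. Olig2, a transcription factor of the oligodendrocyte lineage, had none above 2.54. Organs were normalized apart, so these levels describe each organ and are not differences between organs. A level on these arrays also depends on the probes, so the 9 genes are not ranked against each other.

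The sequence before 3 of the transcription starts is shown because Olig2 is the gene that was called and because Mobp and Cnp hold letters bound by SOX proteins, the family of the oligodendrocyte factor SOX10. RefSeq promoter windows (GRCm38.p6) of 300 bases, 250 before to 50 after the start, were available for 8 of the 9 genes, 10 windows in all, with 3 for Mag and 1 for each other. The 250 bases before the start are printed from the plus strand, where all 3 genes lie, at chr16:91225300-91225549 for Olig2, chr9:120149492-120149741 for Mobp and chr11:100574689-100574938 for Cnp. Capitals mark exact matches to ACAAAG or ACAATG on either strand and to TATAAA.
Olig2: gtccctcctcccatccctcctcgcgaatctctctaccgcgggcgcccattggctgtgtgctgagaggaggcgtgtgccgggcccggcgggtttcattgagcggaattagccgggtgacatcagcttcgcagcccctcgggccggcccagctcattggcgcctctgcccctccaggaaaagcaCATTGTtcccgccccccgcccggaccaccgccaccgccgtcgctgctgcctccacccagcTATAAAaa
Mobp: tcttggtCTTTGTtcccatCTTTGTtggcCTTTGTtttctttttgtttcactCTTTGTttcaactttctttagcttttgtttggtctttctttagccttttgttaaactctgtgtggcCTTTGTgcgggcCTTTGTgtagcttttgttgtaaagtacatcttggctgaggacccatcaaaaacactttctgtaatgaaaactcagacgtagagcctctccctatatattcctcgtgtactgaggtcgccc
Cnp: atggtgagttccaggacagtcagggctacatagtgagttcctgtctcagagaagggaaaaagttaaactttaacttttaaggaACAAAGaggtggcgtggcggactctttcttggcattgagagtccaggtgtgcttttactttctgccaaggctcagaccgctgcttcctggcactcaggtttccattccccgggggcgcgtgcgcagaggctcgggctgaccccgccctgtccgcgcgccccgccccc
ACAAAG matched Mobp 6 times, between 120 and 243 bases before the start and always on the minus strand, where it reads CTTTGT in the printed line. It matched Cnp once, 167 bases before the start, and 2 of the 3 Mag windows once each. Those 2 Mag windows overlap, and their match is the same genomic site. ACAATG matched Olig2 alone, on the minus strand 68 bases before the start, and TATAAA matched Olig2 alone, 8 bases before the start. Mog, Cldn11, Ugt8a and Mal held no match to any of these 3 motifs. The E-box letters CAGATG and CAGCTG, also searched on both strands, were in none of the 10 windows. Over all 32851 windows of this length, 18.7% held ACAAAG, 12.6% ACAATG, 17.2% CAGATG, 16.3% CAGCTG and 13.6% TATAAA. These are letters in a window, not sites shown to be bound, and none of the motifs overlap in the printed lines.

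At 6 h the myelin genes stayed close to vehicle. None of the 9 was called in any of the 4 dosed groups by limma, with 0 at an unadjusted p below 0.05 in DMF 100, 1 in DMF 179.2, 0 in MEF and 0 in DMF 100 plus MEF. Such a p was found for 6.14% of all genes in DMF 100, 23.2% in DMF 179.2, 6.56% in MEF and 12% in DMF 100 plus MEF. Over all genes 0.0117% were called in DMF 100, 7.2% in DMF 179.2, 0.123% in MEF and 0.105% in DMF 100 plus MEF. The median log2 change of the 9 was 0.03 in DMF 100, 0.09 in DMF 179.2, 0.02 in MEF and 0.02 in DMF 100 plus MEF, against medians over all genes between 0.00 and 0.01. The 36 changes ran from -0.12 to 0.30, and 28 of them were above 0.

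Among the compacting proteins at 6 h, Mbp ranged from 12.28 to 12.42 in DMF 179.2 (median 12.34) and from 12.20 to 12.35 in vehicle (median 12.27). The groups overlapped, and the change was 0.07 ± 0.08 (SE). Mobp ranged from 10.95 to 11.23 in DMF 179.2 (median 11.07) and from 11.01 to 11.20 in vehicle (median 11.09), a change of -0.02 ± 0.14. Its DMF 179.2 values thus spanned those of vehicle on both sides.

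Cldn11 ranged from 10.81 to 11.05 in DMF 179.2 (median 10.90) and from 10.65 to 10.88 in vehicle (median 10.75). The change was 0.17 ± 0.11, with an adjusted p of 0.375 from limma. Within groups its SD was 0.09 in DMF 179.2 and 0.07 in vehicle. In a fit of only these DMF 179.2 and vehicle arrays, with their own spread, the same change had an adjusted p of 0.0265. Mag ranged from 8.47 to 8.76 in DMF 179.2 (median 8.59) and from 8.11 to 8.70 in vehicle (median 8.45), and its change of 0.15 ± 0.18 was within the spread. Ugt8a, at 10.41 to 10.66 in DMF 179.2 and 9.85 to 10.59 in vehicle, changed by 0.14 ± 0.14.

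Olig2 had the highest of the 6 h changes. It ranged from 6.95 to 7.29 in DMF 179.2 (median 7.11) and from 5.78 to 7.16 in vehicle (median 6.91). All 8 DMF 179.2 arrays lay above the vehicle median, and the groups overlapped. The change was 0.30 ± 0.12, with an adjusted p of 0.113. Vehicle replicate 58 held the value of 5.78, and Gabra6 was 9.80 in that array. Without replicate 58 the Olig2 change was 0.15 ± 0.11, with an adjusted p of 0.439.

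**Figure D1:**
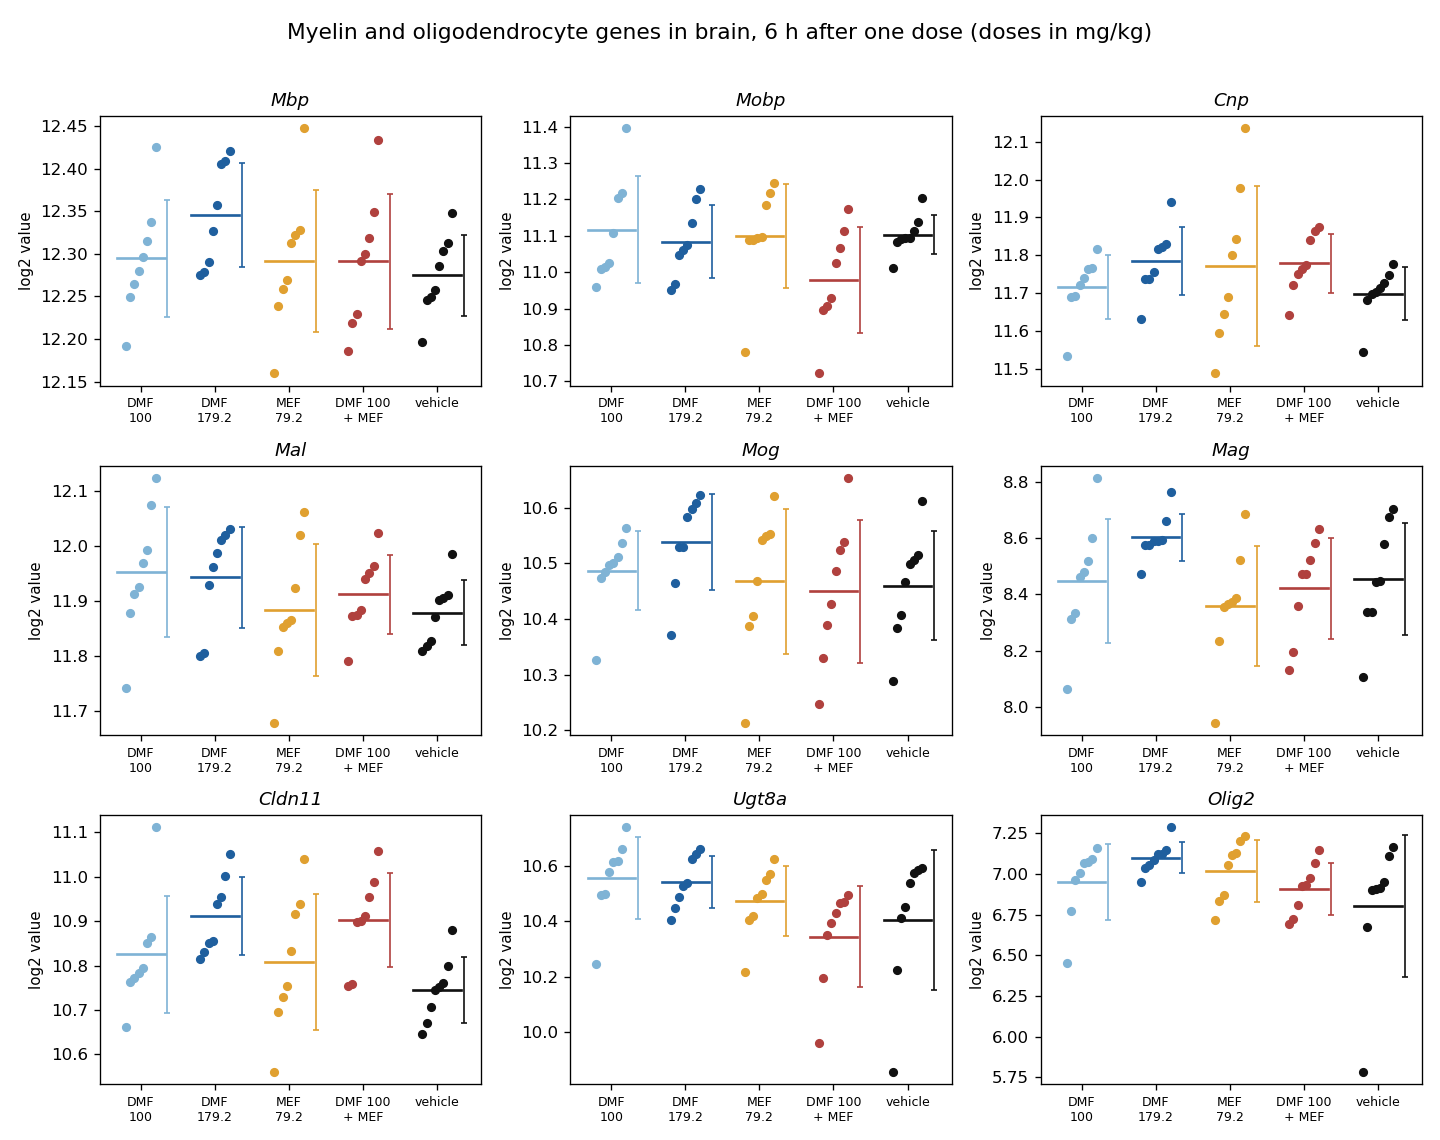
Log2 value of each of the 9 genes (1 panel each) in every brain array at 6 h, by group, with the group mean (bar) and SD (whisker). Dosed and vehicle arrays overlap in every panel, and vehicle replicate 58 is the single low Olig2 point at 5.78.

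At 12 h Olig2 was lower in DMF 179.2 than in vehicle, and it was the only one of the 9 called in any comparison with vehicle. It ranged from 5.48 to 6.11 in DMF 179.2 (median 5.96) and from 6.01 to 6.73 in vehicle (median 6.39). All 8 DMF 179.2 arrays lay below the vehicle median, and the groups overlapped between 6.01 and 6.11. Olig2 fell by 0.46 ± 0.12 on the log2 scale, a fold of 0.729 with a 95% interval of 0.616 to 0.862, and an adjusted p of 0.036 in limma. The 1 of 9 called stands beside 1.31% of all genes called in this comparison, 224 of 17097, and 0.714% called lower.

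That call was close to its threshold. With the place of the animal number as a covariate the change was -0.34 (adjusted p = 0.182). Within places 5 to 8, which hold 4 arrays of each group, it was -0.47 (adjusted p = 0.352). Without the 3 vehicle arrays of Hox mean above 3 it was -0.36 (adjusted p = 0.358). Without the 7 arrays above 2.6, which include 5 of the 8 vehicle arrays, it was -0.43 (adjusted p = 0.433). Without the 8 Gabra6-marked arrays it was -0.38 (adjusted p = 0.106). In a fit of the 2 groups alone the adjusted p was 0.0945, and over the 12 h arrays alone it was 0.068. The share of all genes called moved with these settings too. It was 1.12% with place as a covariate, 0.00585% within places 5 to 8, 0.345% and 0.567% without the arrays above 3 and above 2.6, and 0.567% without the Gabra6-marked arrays. It was 0.24% for the 2 groups alone and 0.339% for the 12 h arrays alone. Leaving out 1 array at a time gave changes from -0.51 to -0.39, and 7 of 16 such fits kept the call. The call ended without DMF 179.2 replicates 17, 20, 22 or 23 and without vehicle replicates 1, 2, 6, 7 or 8, with adjusted p values of 0.05002 to 0.1141. The direction was the same in every one of these fits.

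**Figure D2:**
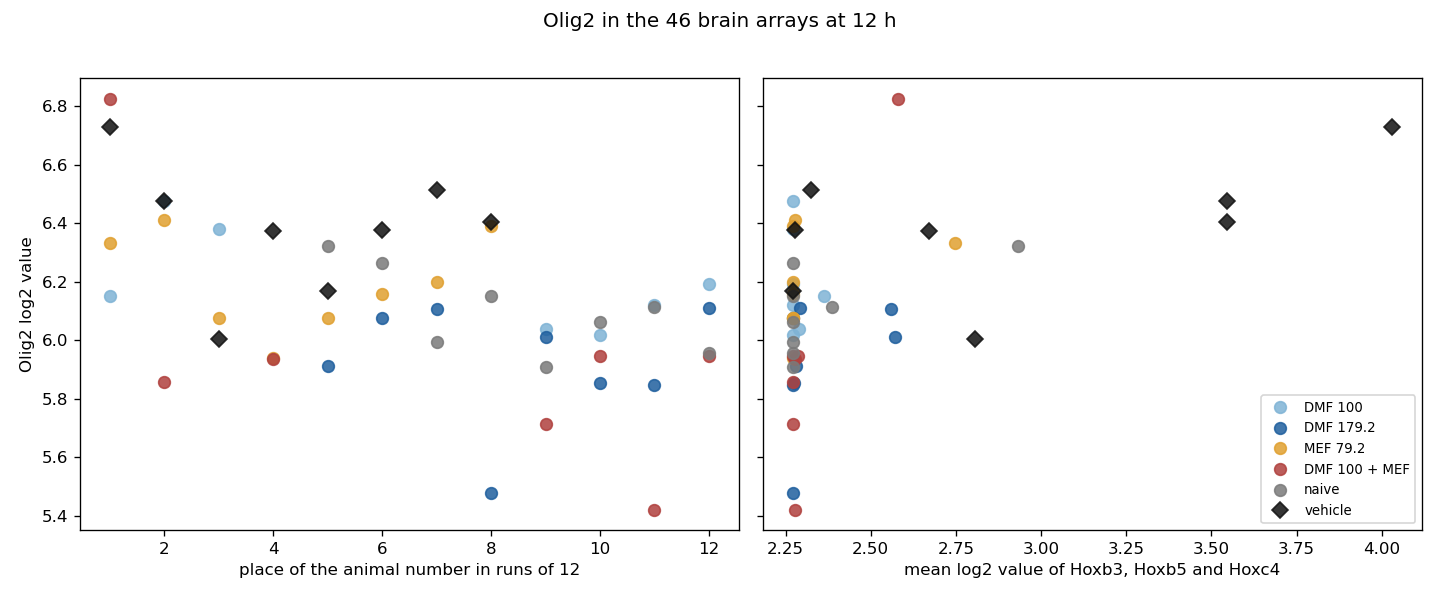
Olig2 log2 value in the 46 brain arrays at 12 h against the place of the animal number in runs of 12 (left) and against the mean log2 value of Hoxb3, Hoxb5 and Hoxc4 (right), coloured by group. Vehicle arrays (diamonds) lie at places 1 to 8 and hold the 3 Hox means above 3, while DMF 179.2 arrays lie at places 5 to 12 with Hox means up to 2.57.

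The other 8 genes had negative changes in DMF 179.2 at 12 h as well, none of them called. Mobp ranged from 9.36 to 10.71 in DMF 179.2 (median 9.95) and from 10.01 to 11.06 in vehicle (median 10.18), with 6 of 8 DMF 179.2 arrays below the vehicle median. Its change was -0.35 ± 0.14 (adjusted p = 0.2). Mog ranged from 8.19 to 9.69 in DMF 179.2 (median 9.13) and from 9.05 to 9.88 in vehicle (median 9.19), a change of -0.34 ± 0.14 (adjusted p = 0.228). The medians of Mog lay close together, and the lower mean came with a wider spread.

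Ugt8a ranged from 8.46 to 9.94 in DMF 179.2 (median 9.41) and from 9.29 to 9.83 in vehicle (median 9.62). Its change was -0.32 ± 0.14 (adjusted p = 0.279), and 7 of 8 DMF 179.2 arrays were below the vehicle median. Mag ranged from 5.81 to 7.65 in DMF 179.2 (median 7.14) and from 6.71 to 7.78 in vehicle (median 7.15), a change of -0.29 ± 0.18. Mal changed by -0.13 ± 0.12, Mbp by -0.11 ± 0.08, Cnp by -0.05 ± 0.10 and Cldn11 by -0.04 ± 0.11. These 4 had adjusted p values of 0.576 or more, and their groups overlapped. With Olig2 included, 4 of the 9 had an unadjusted p below 0.05, against 14.5% of all genes. The 9 genes vary together within groups, so such counts are not counts of separate results, here and in the other comparisons. The median of the 9 changes was -0.29, beside 0.00 over all genes. Replicate 20 was the lowest DMF 179.2 array for all 9 genes. Without it the changes were -0.13 for Mag, -0.21 for Mog, -0.21 for Ugt8a, -0.27 for Mobp and -0.39 for Olig2, while Cnp and Cldn11 were at 0.04 and 0.05. None was called without it. With place as a covariate Mobp was -0.21 and Olig2 -0.34, nearer 0 than without it. Ugt8a was -0.41, Mog -0.35, Mag -0.30, Mal -0.21, Mbp -0.19, Cldn11 -0.16 and Cnp -0.08, further from 0. Within places 5 to 8, where replicate 20 is 1 of 4 DMF 179.2 arrays, each of the 9 lay further from 0. They ran from -0.79 (Mag) to -0.31 (Cnp), with Mobp at -0.54. None was called in either setting.

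In DMF 100 plus MEF at 12 h the changes were again all negative, with none of the 9 called by limma and 5 at an unadjusted p below 0.05. Of all genes, 1.45% were called and 14.7% had such a p. Olig2 ranged from 5.42 to 6.83 in DMF 100 plus MEF (median 5.94) and from 6.01 to 6.73 in vehicle (median 6.39). Its change was -0.43 ± 0.13 (adjusted p = 0.0586). A single array, replicate 37, was at 6.83, and the other 6 were at or below 5.95, under every vehicle array.

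Replicate 37 was the highest array of its group for all 9 genes. It also had the group's highest mean of Hoxb3, Hoxb5 and Hoxc4 (2.58) and its highest Slc6a5 value (5.43). Without it 4 of the 9 genes were called lower than vehicle, Olig2 at -0.58 (adjusted p = 0.00221), Mobp at -0.51 (adjusted p = 0.021), Ugt8a at -0.54 (adjusted p = 0.0317) and Mog at -0.48 (adjusted p = 0.0384). In that fit 3.37% of all genes were called, 576 in place of 248, and without replicate 35 only 57 were, with none of the 9. With it, Ugt8a was -0.43 ± 0.15, Mobp -0.35 ± 0.14 and Mog -0.34 ± 0.14. Within places 1 to 4, where 3 DMF 100 plus MEF arrays including replicate 37 meet 4 vehicle arrays, 6 of the 9 changes were above 0 and their median was 0.07, with none called.

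MEF alone at 12 h gave 9 negative changes from -0.38 to -0.15, with a median of -0.19 and none called by limma. At an unadjusted p below 0.05 there were 2, Ugt8a and Mbp, against 10.3% of all genes, and 0.0877% of all genes were called. Ugt8a ranged from 8.59 to 9.70 in MEF (median 9.19) and from 9.29 to 9.83 in vehicle (median 9.62), a change of -0.38 ± 0.14 (adjusted p = 0.307). Olig2 changed by -0.18 ± 0.12.

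DMF 100 at 12 h gave 9 negative changes from -0.28 to -0.01, with a median of -0.10. None was called by limma, none had an unadjusted p below 0.05, against 7.88% of all genes, and 0.0234% of all genes were called. The change furthest from 0 was that of Mag, which ranged from 6.01 to 7.38 in DMF 100 (median 7.12) and from 6.71 to 7.78 in vehicle (median 7.15). Its mean difference of -0.28 ± 0.18 came with medians that nearly coincide, and replicate 13, at 6.01, was the lowest DMF 100 array. Gabra6 was 9.19 in that array. Without replicate 13 the Mag change was -0.11, and the changes of Cnp, Cldn11, Ugt8a and Mal were above 0, at 0.03 to 0.09.

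Naive mice were set against the same vehicle mice at 12 h. Of the 9 genes, 8 had negative changes in naive against vehicle, and Mag was at 0.11 ± 0.18. None was called by limma, 2 had an unadjusted p below 0.05 against 15.7% of all genes, and 2.56% of all genes were called. Mobp ranged from 9.40 to 10.17 in naive (median 10.03) and from 10.01 to 11.06 in vehicle (median 10.18), and all 8 naive arrays were below the vehicle median. Its change was -0.36 ± 0.14 (adjusted p = 0.161). It was -0.21 with place as a covariate, -0.19 within places 5 to 8, -0.13 as the mean of all Mobp probe sets and -0.22 without the arrays of Hox mean above 3. Olig2 ranged from 5.91 to 6.32 in naive (median 6.09) and from 6.01 to 6.73 in vehicle (median 6.39). Again all 8 naive arrays were below the vehicle median, with a change of -0.28 ± 0.12 (adjusted p = 0.22). With place as a covariate it was -0.16, and within places 5 to 8 -0.18. The covariate moved Cldn11 from -0.06 to -0.18, Mal from -0.08 to -0.17, Mbp from -0.10 to -0.18 and Ugt8a from -0.09 to -0.18. Mog was -0.15, Cnp -0.08 and Mag 0.10 with it. Within places 5 to 8 Cldn11 and Mal were -0.22, Mbp and Mog -0.15, Cnp and Ugt8a -0.08 and Mag 0.08.

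All 5 comparisons at 12 h share the same 8 vehicle arrays, so their common direction counts once. The vehicle arrays with hindbrain genes are among those 8. The 7 arrays of Hox mean above 2.6 include 5 of these 8 vehicle arrays. Without the 7, the median change of the 9 genes was -0.09 in DMF 100, -0.22 in DMF 179.2 and -0.23 in MEF. It was -0.31 in DMF 100 plus MEF and -0.13 in naive. None of the 9 was called in any of these comparisons against the smaller vehicle group.

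**Figure D3:**
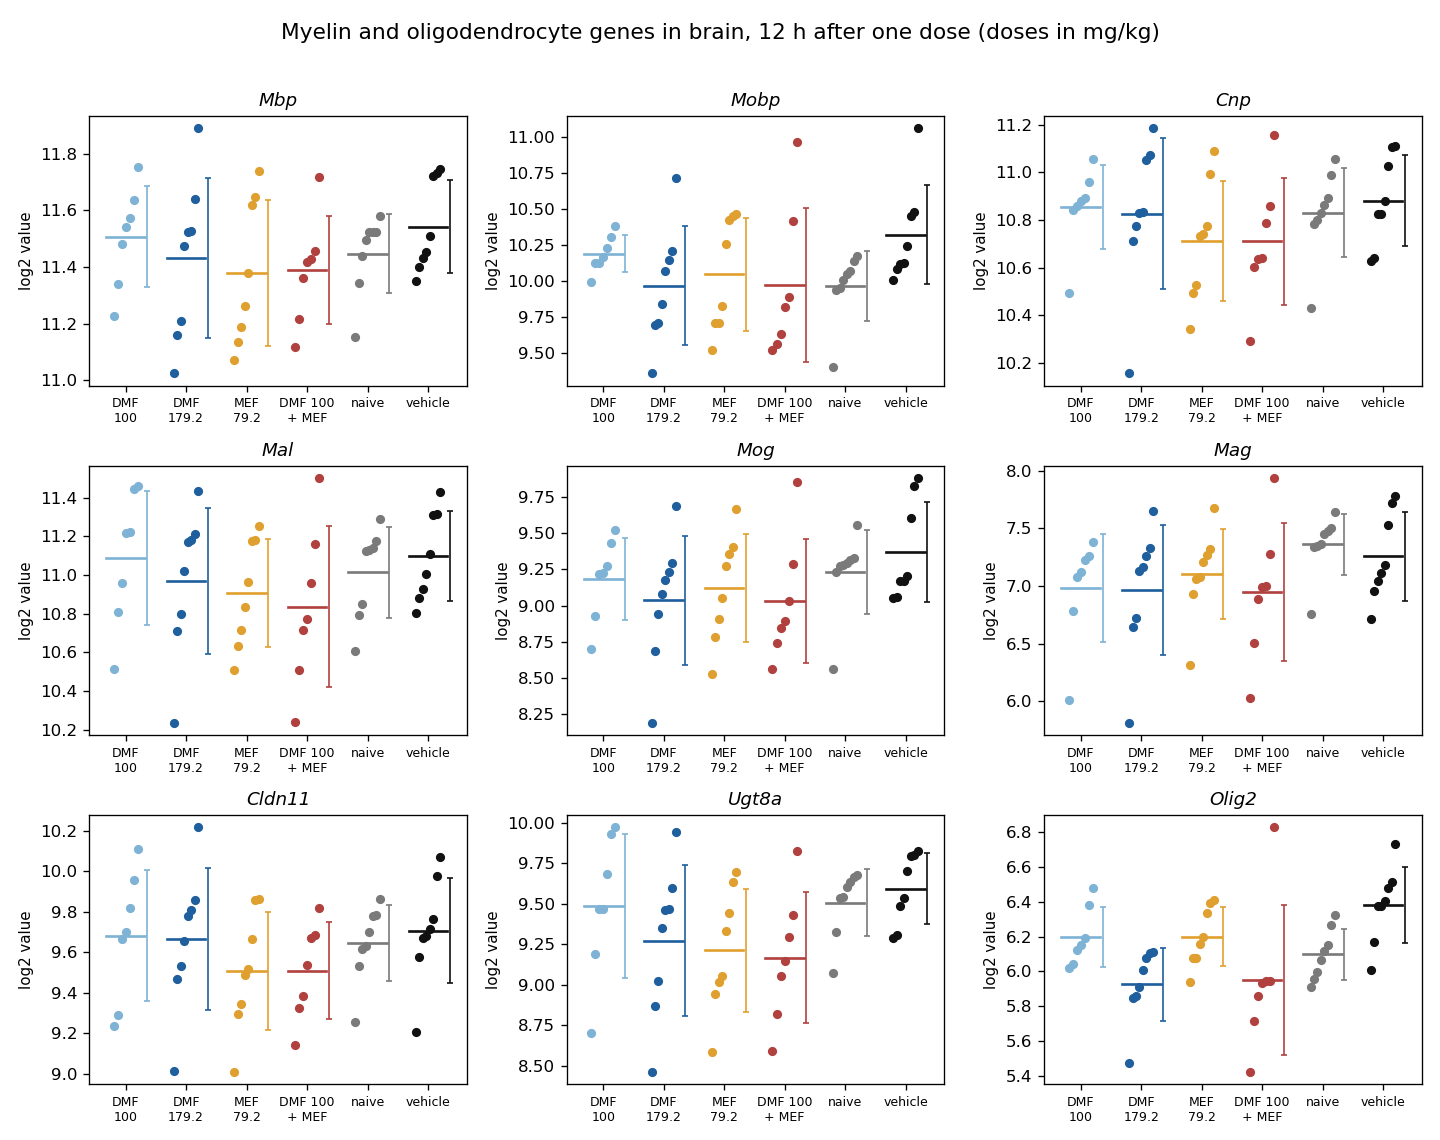
Log2 value of each of the 9 genes (1 panel each) in every brain array at 12 h, by group, with the group mean (bar) and SD (whisker). For Olig2 the DMF 179.2 arrays reach 6.11 and the vehicle arrays begin at 6.01, and 1 array of DMF 100 plus MEF stands at 6.83.

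Tests of the dose and of the addition of MEF left the 9 genes without a call by limma. DMF 179.2 against DMF 100 gave changes from -0.03 to 0.15 at 6 h and from -0.27 to -0.02 at 12 h, with 0 and 1 of the 9 at an unadjusted p below 0.05. Of all genes, 8.02% and 0.0994% were called at those times, and 23.2% and 8.64% had such a p. Olig2 at 12 h had a median of 5.96 in DMF 179.2 and 6.15 in DMF 100, a difference of -0.27 ± 0.13 with a 95% interval of -0.52 to -0.02 (adjusted p = 0.516). Adding MEF to DMF 100 gave differences from -0.21 to 0.08 at 6 h and from -0.32 to -0.03 at 12 h, with 0 and 1 at an unadjusted p below 0.05. Of all genes, 0.0526% and 0.0351% were called there, and 11.8% and 8.15% had such a p. DMF is a diester and MEF the salts of a monoester. They were given at 179.2 or 100 mg/kg and at 79.2 mg/kg, so their changes stand side by side above and are not compared.

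**Figure D4:**
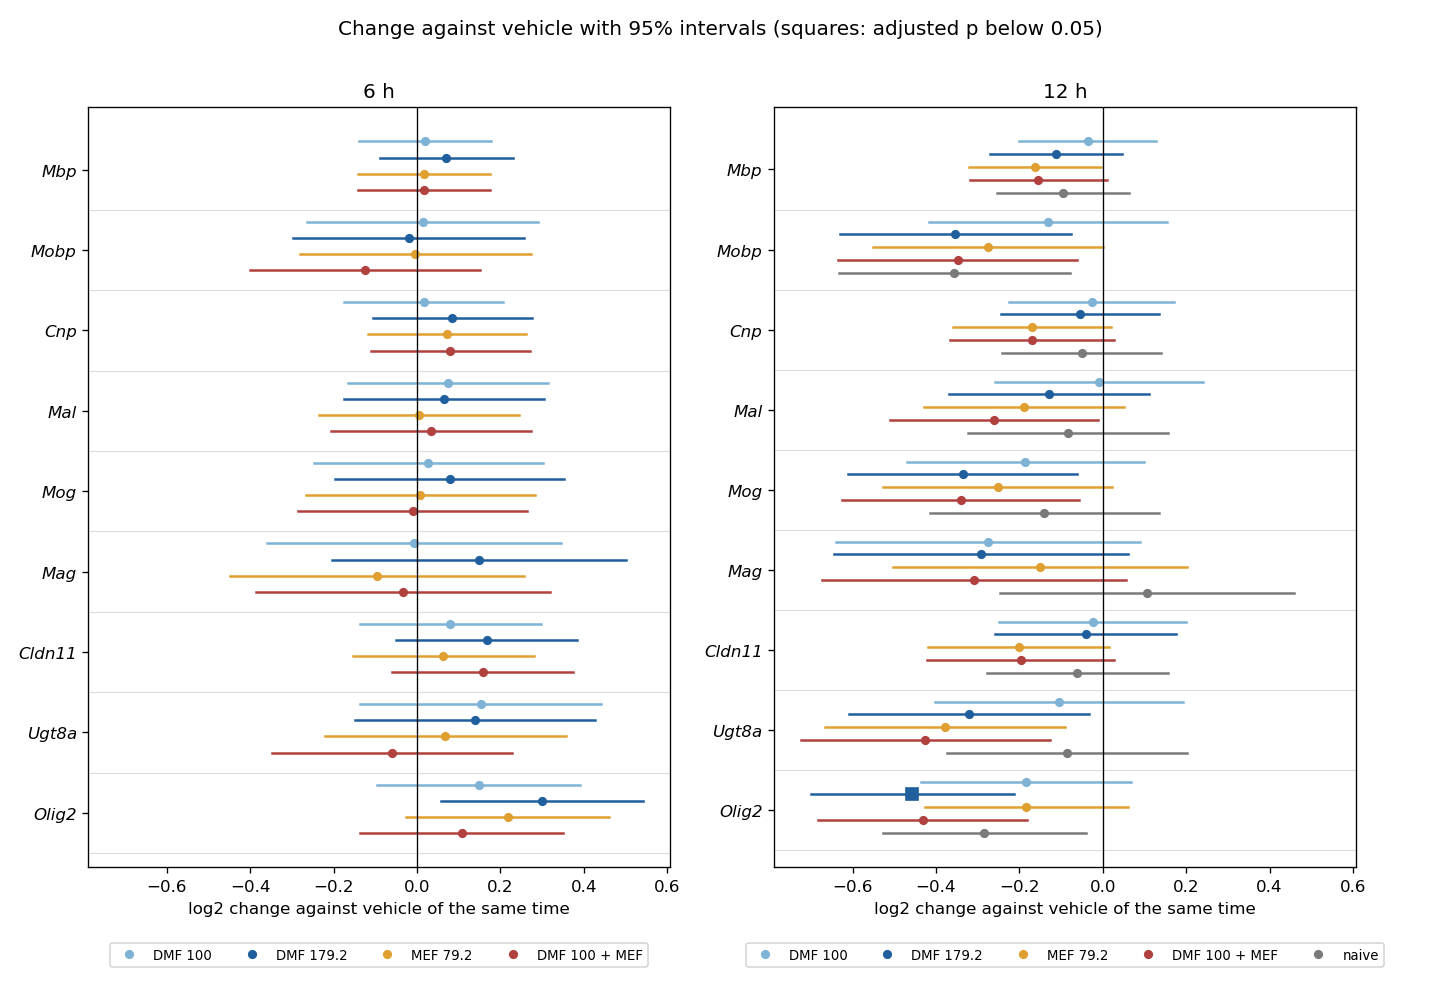
Log2 change against the vehicle of the same time, with 95% interval, for each gene and group at 6 h (left) and 12 h (right). A square marks an adjusted p below 0.05, which only Olig2 in DMF 179.2 at 12 h has (-0.46), and at 12 h all points but that of Mag in naive lie below 0.

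The effect of DMF 179.2 on Olig2 differed between the times. It was -0.46 at 12 h and 0.30 at 6 h, a difference of -0.76 ± 0.17 with an adjusted p of 0.0173 in limma. Of the 9 genes 1 was called, beside 1.12% of all genes and 0.848% called lower. At an unadjusted p below 0.05 there were 3 of the 9, against 15.1% of all genes. All 32 fits that left out 1 array kept this call, with differences from -0.81 to -0.61. The value of -0.61 is that without 6 h vehicle replicate 58. With place as a covariate it was -0.72 (adjusted p = 0.0166). It was -0.73 (adjusted p = 0.0679) without the arrays of Hox mean above 2.6, -0.66 (adjusted p = 0.0805) without those above 3, -0.55 (adjusted p = 0.0987) without the Gabra6-marked arrays, and -0.82 (adjusted p = 0.327) within places 5 to 8. In a fit of only the 4 groups concerned its adjusted p was 0.0607.

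For the other 3 treatments no member's effect was called different between the times by limma, with 0 of the 9 at an unadjusted p below 0.05 for DMF 100, 2 for MEF and 2 for DMF 100 plus MEF. Over all genes 0%, 0.0117% and 0.00585% were called for DMF 100, MEF and DMF 100 plus MEF, and 4.18%, 5.75% and 8.35% had an unadjusted p below 0.05. Olig2 gave -0.54 ± 0.18 for DMF 100 plus MEF and -0.40 ± 0.17 for MEF. All 9 differences were negative for each of the 4 treatments, which share the vehicle arrays of both times.

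The 9 genes varied together from brain to brain within groups. After each group's mean was taken off, the 36 pairs had Pearson correlations over the 86 arrays from 0.24 to 0.89 with a median of 0.79. Mog and Mag, the outer and the inner surface protein, were the closest pair (r = 0.894, Spearman rho = 0.799). The 8 pairs with Olig2 ranged from 0.24 to 0.53, below the median of 0.81 for the 28 pairs without it. These points share arrays and normalization, and the correlations are descriptions.

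The co-variation is given for each time, since the times were normalized apart. Pairs had a median r of 0.84 over the 46 arrays at 12 h and 0.41 over the 40 arrays at 6 h. The mean deviation of the 9 genes from their group ranged from -0.70 to 0.68 at 12 h (SD 0.27), and from -0.24 to 0.18 at 6 h (SD 0.08). At 12 h the lowest array was DMF 179.2 replicate 20, and the highest was DMF 100 plus MEF replicate 37, so dosed groups held both ends. Against the mean of the other 8, Mog had r = 0.94 (rho = 0.876) and 0.92 without the 2 most distant arrays, with 0.713 at 6 h and 0.959 at 12 h. Olig2 had r = 0.48 (rho = 0.385) and 0.344 without the 2 most distant arrays, with 0.268 at 6 h and 0.626 at 12 h.

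**Figure D5:**
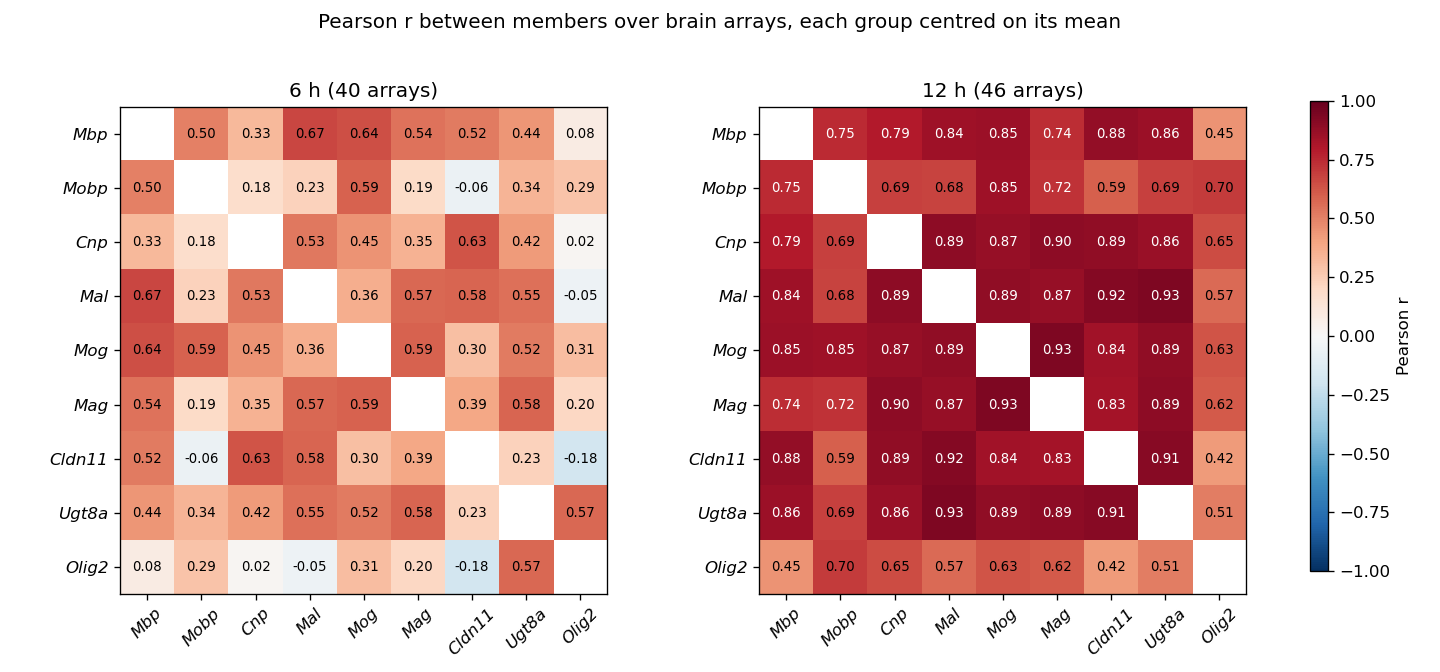
Pearson r between each pair of the 9 genes over the 40 brain arrays at 6 h (left) and the 46 at 12 h (right), after each group's mean was subtracted. Pairs at 12 h range from 0.42 to 0.93 and pairs at 6 h from -0.18 to 0.67, and the Olig2 line is the palest in both.

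The genes whose within-group pattern was most like the mean of the 9, among 8538 genes above the median brain level, were Ermn (r = 0.934), Trf (0.905), Qdpr (0.901), Tspan2 (0.893), Trim59 (0.89), Adamts4 (0.887), Evi2a (0.878), Gpr37 (0.869), 1700047M11Rik (0.868) and Prr5l (0.867). Ermn encodes the cytoskeletal protein ermin of the sheath, Trf the iron carrier transferrin, and Tspan2 a tetraspanin of oligodendrocytes. Each of the 10 had a positive r at both times, from 0.341 to 0.827 at 6 h and from 0.895 to 0.954 at 12 h. The least alike were B230216N24Rik (-0.771), Cux2 (-0.73), Igfbp6 (-0.658), Iqsec2 (-0.643) and Nectin3 (-0.642). Cux2 encodes a homeobox factor of upper cortical layers.

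Over marker lists, the median r to this pattern was 0.70 for 30 other myelin genes, 0.53 for 6 striatal genes, 0.46 for 10 transcription factors of the lineage and 0.07 for 9 genes of oligodendrocyte precursors. It was -0.31 for 6 blood cell genes, -0.19 for 8 forebrain genes and -0.18 for 9 astrocyte genes, beside 0.04 for all genes ranked. Other lists lay on the positive side, at 0.31 for 8 choroid plexus and ependymal genes, 0.22 for 9 brainstem genes and 0.21 for 14 neuron genes, which reached from -0.39 to 0.73. The 6 striatal genes ranged from 0.45 to 0.61 and the 8 forebrain genes from -0.50 to 0.24. The part of these region markers in the shared pattern was not tested.

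A wider list of the myelin programme was read in the same comparisons. Of 30 other myelin and mature oligodendrocyte genes, 1 was called in DMF 179.2 at 12 h, beside 1.31% of all genes. It was lower and was Nfasc, the neurofascin of axon-glia junctions (-0.26 ± 0.06, adjusted p = 0.00795). Of those 30, 27 had negative changes, with a median of -0.15. At 6 h in DMF 179.2, where 7.2% of all genes were called, 1 of the 30 was called higher, Ninj2, an adhesion protein (0.64 ± 0.16, adjusted p = 0.0115), with a median of 0.08. In naive against vehicle, beside 2.56% of all genes, 1 was called higher, Omg, a glycoprotein of oligodendrocytes and neurons (0.20 ± 0.05, adjusted p = 0.0275). In the other 6 comparisons with vehicle none of the 30 was called, with medians from -0.14 to 0.03.

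Of 10 other transcription factors of the lineage, 1 was called lower in DMF 179.2 at 12 h, again beside 1.31% of all genes, Nkx6-2, a homeobox factor of myelinating oligodendrocytes (-0.41 ± 0.09, adjusted p = 0.0094). None was called in the other 8 comparisons with vehicle. Of 14 genes of myelin lipid synthesis, Cers2, the ceramide synthase for very long chains, was lower in DMF 100 plus MEF at 12 h (-0.29 ± 0.08, adjusted p = 0.0455), beside 1.45% of all genes called there. Degs1, which desaturates dihydroceramide, was lower in naive than in vehicle (-0.23 ± 0.05, adjusted p = 0.00767), beside 2.56% of all genes called there. Of 9 precursor genes none was called in any of the 9 comparisons, with medians from -0.07 to 0.08.

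NRF2 target genes give the scale of the response in the same arrays. In DMF 179.2, 4 of 14 were called higher at 6 h and 3 of 14 at 12 h, beside 7.2% and 1.31% of all genes called, Nqo1 at 0.43 ± 0.14 and 0.77 ± 0.14 at those times (adjusted p = 0.0419 and 0.000757). In DMF 100 plus MEF at 12 h 2 of 14 were called higher, beside 1.45% of all genes called, Nqo1 at 0.63 ± 0.14.

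None of the markers listed for other main brain cells was called in the comparison that called Olig2. There 1.31% of all genes were called, and none among so few markers is near that share. In DMF 179.2 against vehicle at 12 h none of 14 neuron, 9 astrocyte, 9 microglia, 8 endothelial or 8 choroid plexus and ependymal markers was called by limma, with medians of -0.07, -0.01, 0.05, -0.03 and 0.28. Striatal markers had a median of 0.46 over 6 genes, none called. The brainstem markers Hoxb3, Hoxb5, Hoxc4 and Slc6a5 were called lower in this comparison, as given above.

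For 5 of the 9 genes other probe sets gave a second reading. Mobp had 3 further probe sets, and Mbp, Mal, Cnp and Ugt8a 1 each. Their within-group correlation with the probe set used was 0.37 to 0.85 for Mobp, 0.74 for Mbp, 0.66 for Cnp and 0.48 for Mal. The further probe set of Ugt8a had a mean of 2.22, near the floor. In DMF 179.2 at 12 h all 7 further probe sets had negative changes, from -0.31 to 0.00, the one nearest 0 being that of Ugt8a. Elsewhere their signs often parted from those of the probe sets used. At 6 h in DMF 100 all 7 were negative, while 8 of the 9 used were positive, and in naive and in 6 h MEF 3 of the 7 were negative. At 6 h in DMF 179.2 the further probe set of Mal was at -0.30 and that used at 0.06, and for Mbp they were at -0.19 and 0.07. For Mobp 1 further probe set was at 0.34 and that used at -0.02. None of the 7 was called in any comparison with vehicle. Olig2, Mog, Mag and Cldn11 have a single probe set, so the Olig2 call rests on 1.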

How the data were processed

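Brain messenger RNA of 86 mice was analysed, from arrays of 45141 probe sets. The platform annotation used here gives 1 gene for 28898 of them, several genes for 551 and none for 15588, beside 104 control probe sets. The authors deposited 1 log2 value for each probe set and array. The submitters' processing notes name GCRMA, RMA, limma 3.4.5 and R 2.11.1, without saying which step each served. At the floor were 20.4% of values at 6 h and 19.2% at 12 h, so low genes carry little information, and precision rests on the number of arrays. No brain arrays were duplicates (highest correlation 0.99903).

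Each of 17097 genes was represented by its 1-gene probe set of highest brain mean. A limma model (3.58.1, in R 4.3.3 with the data.table package, version 1.17.8) with 1 mean per group of time and treatment over all 86 arrays gave 17 contrasts with moderated variances. Tests were 2-sided, with the Benjamini-Hochberg adjustment made over all genes of a contrast. Differences are dosed or naive minus vehicle, and ± marks the SE. The script was tested on simulated data. Plots were made with matplotlib 3.10.9 from files prepared with pandas 2.3.3 and numpy 2.4.6 under Python 3.11.15.

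The members and marker lists were chosen with earlier results of these data known. All 9 members are described. From each other list up to 4 called genes per contrast may be named, and by likeness of pattern the 10 highest and 5 lowest genes above the median brain level. Likeness is the Pearson r, over 86 arrays, to the mean of the members after group means were removed. Hoxb3, Hoxb5, Hoxc4 and Gabra6 were singled out after their values had been seen.

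Alternatives were averaging a gene's probe sets, dim genes left out, a further quantile normalization, trend and robust variance, smaller fits, place as a covariate, contrasts within shared places, and leaving out each array. After seeing the data 4 more were added, namely leaving out the arrays marked by Hox genes or by Gabra6, and each probe set on its own.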

Additional observations from a re-analysis of the deposited data

Results flagged for a closer look

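In DMF 179.2 the effect on Olig2 differed between the times by a test of the difference itself, at -0.76 on the log2 scale (12 h effect minus 6 h effect).

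Of 99 combinations of gene and group, 15 held an array far from the others, where chance gives about 1 in 20. At 12 h, DMF 179.2 replicate 20 was lowest for Cnp (10.16) and Olig2 (5.48). DMF 100 replicate 13, where Gabra6 was 9.19, was lowest for Cnp (10.49). Replicate 37 was the highest DMF 100 plus MEF array for Olig2 (6.83). Naive replicate 45 was lowest for Cnp (10.43), Mag (6.76), Mobp (9.40) and Mog (8.56), so 4 of the 15 come from 1 array. Vehicle replicate 1 was highest for Mobp (11.06). At 6 h, DMF 100 replicate 61 was highest for Cldn11 (11.11), and replicate 65 was lowest for Cnp (11.54) and Mog (10.33). MEF replicate 76 was lowest for Mobp (10.78). Vehicle replicate 58 was lowest for Cnp (11.55) and Olig2 (5.78), and Gabra6 was 9.80 in that array.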

How the results depend on the processing

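The count of members called kept its value in most settings, and the exceptions follow. For DMF 179.2 against vehicle at 12 h the count of 1 became 0 in the fit of only the groups compared, in the fit of the 12 h arrays alone, with place as a covariate, within shared places, and without the arrays of Hox mean above 2.6, those above 3, or those marked by Gabra6. For the effect of DMF 179.2 at 12 h against 6 h the count of 1 became 0 in the fit of only the groups compared, within shared places, and without each of the same 3 sets of arrays. The count of 0 became 1 for DMF 100 plus MEF against vehicle at 12 h with dim genes left out (Olig2, adjusted p = 0.0355), and 1 for DMF 179.2 against vehicle at 6 h in the fit of only the groups compared (Cldn11). The share of all genes called in those fits is not given here, so these counts are not set against it. Leaving out 1 array gave counts of 0 to 1 for DMF 179.2 against vehicle at 12 h and of 0 to 4 for DMF 100 plus MEF against vehicle at 12 h. In the comparison of DMF 100 plus MEF with vehicle Olig2 was also called without vehicle replicate 3 (adjusted p = 0.0352). A smaller fit or fewer arrays leave fewer residual degrees of freedom, and the spread is then estimated from the arrays kept. In vehicle the SD of Cldn11 was 0.07 at 6 h and 0.26 at 12 h. That of Olig2 was 0.44 at 6 h and 0.22 at 12 h. Why calls were lost or gained was not tested. The count of all genes called moved as well. For DMF 179.2 against vehicle at 12 h it was 224, against 41 in the fit of only the groups compared, 58 for the 12 h arrays alone, 1 within shared places, 97 without the arrays of Hox mean above 2.6 and without those marked by Gabra6, and 59 without those above 3. Leaving out 1 array gave 109 to 329. For the 12 h against 6 h effect it was 191, against 85, 2, 131, 63 and 67 in the fits that lost the Olig2 call, 408 with place as a covariate and 35 to 492 with 1 array left out. For DMF 179.2 at 6 h it was 1231, against 93 with place as a covariate, 3 within shared places, 190 without the Gabra6-marked arrays and 492 to 1910 with 1 array left out. For DMF 100 plus MEF at 12 h it was 248, against 1 for only the groups compared, 16 for the 12 h arrays alone, 0 within shared places and 57 to 576 with 1 array left out. No called change of a member turned its sign. No paired analysis was possible because the groups compared share no animal numbers.

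Limits are that 7 or 8 arrays form a group, that each call rests on 1 probe set, and that region markers and animal place go unevenly over the groups.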
